A study of Citrus unshiu with 6 samples.

Results

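Starch genes were examined in the peel of Satsuma mandarin fruit, a set of 34 genes out of the 23099 in the FPKM table (fragments mapped to a transcript, scaled to its length and to the depth of the library). A gene belonged to the set when the description of its best protein match named starch, an amylase, or another enzyme that makes, trims, phosphorylates, or breaks down the starch glucan. Membership followed from this text alone, but the genes and lists were chosen with earlier results of these data known. Of the 34 genes, 31 reached an FPKM of 1 in at least 1 library, and 3 stayed under 1 in every library. The descriptions put them into 9 roles, of which ADP-glucose pyrophosphorylase, the starch synthases, and the branching enzymes belong to synthesis.

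Peel of fruit with roughing disorder (RD) and of control fruit (CK) was sequenced at 3 stages, counted in days after full bloom (DAFB) as 30, 80, and 170, which gave the libraries RD30 and CK30, RD80 and CK80, and RD170 and CK170. All fruit came from “Yamashitabeni wase” trees (C. unshiu) grafted on trifoliate orange and grown in an orchard. Trees for RD were defruited severely at fruit set and kept only upward fruits, whereas CK trees were left with all their fruit. The disorder therefore cannot be told apart from fruit load, fruit position, or the tree. Each library was 1 pool of triplicate peel samples, and fewer fruits were sampled from RD trees than from CK trees at each stage. FPKM summed to between 587201 and 628627 per library, and the number of reads behind each value is unknown. With 1 library per condition there was no replicate check, so no SD or p is given, and each difference is one between 2 pools. Because whole peel was sequenced, fewer cells of a type and less RNA per cell cannot be told apart.

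Starch is the glucan that plastids store, for short times in green cells and for longer in storage cells, and citrus peel is green and photosynthetic until its chloroplasts turn into chromoplasts at ripening. ADP-glucose pyrophosphorylase activates glucose, starch synthases and branching enzymes build the chains, and isoamylases trim them. For breakdown, dikinases place phosphate on the granule, phosphatases take it off again, and amylases release the sugars, mostly maltose from beta-amylase. Maltose leaves the plastid and is handled in the cytosol by the glucanotransferase DPE2.

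A gene was taken as changed when its FPKM differed at least 2-fold between the libraries and was at least 1 in the higher one. In RD30, 4 of the 31 starch genes at that level (12.9%) were higher than in CK30 and 4 (12.9%) were lower, while of all 17419 genes at that level 25.6% were higher and 6.34% lower. At 80 DAFB none of 31 was higher and 1 was lower (all genes, 5.2% and 4.86%). At 170 DAFB 1 of 30 was higher and 1 lower (all genes, 8.14% and 10.1%). In all, 10 of the 31 expressed starch genes (32.3%) changed at 1 or more stages, beside 42.8% of all expressed genes. Only the ADP-glucose pyrophosphorylase gene Cs9g06360 changed at more than 1 stage, and no starch gene did so at all 3. The share of all genes that changed at more than 1 stage was not counted, so whether this is particular to starch genes is unknown.

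**Figure D1:**
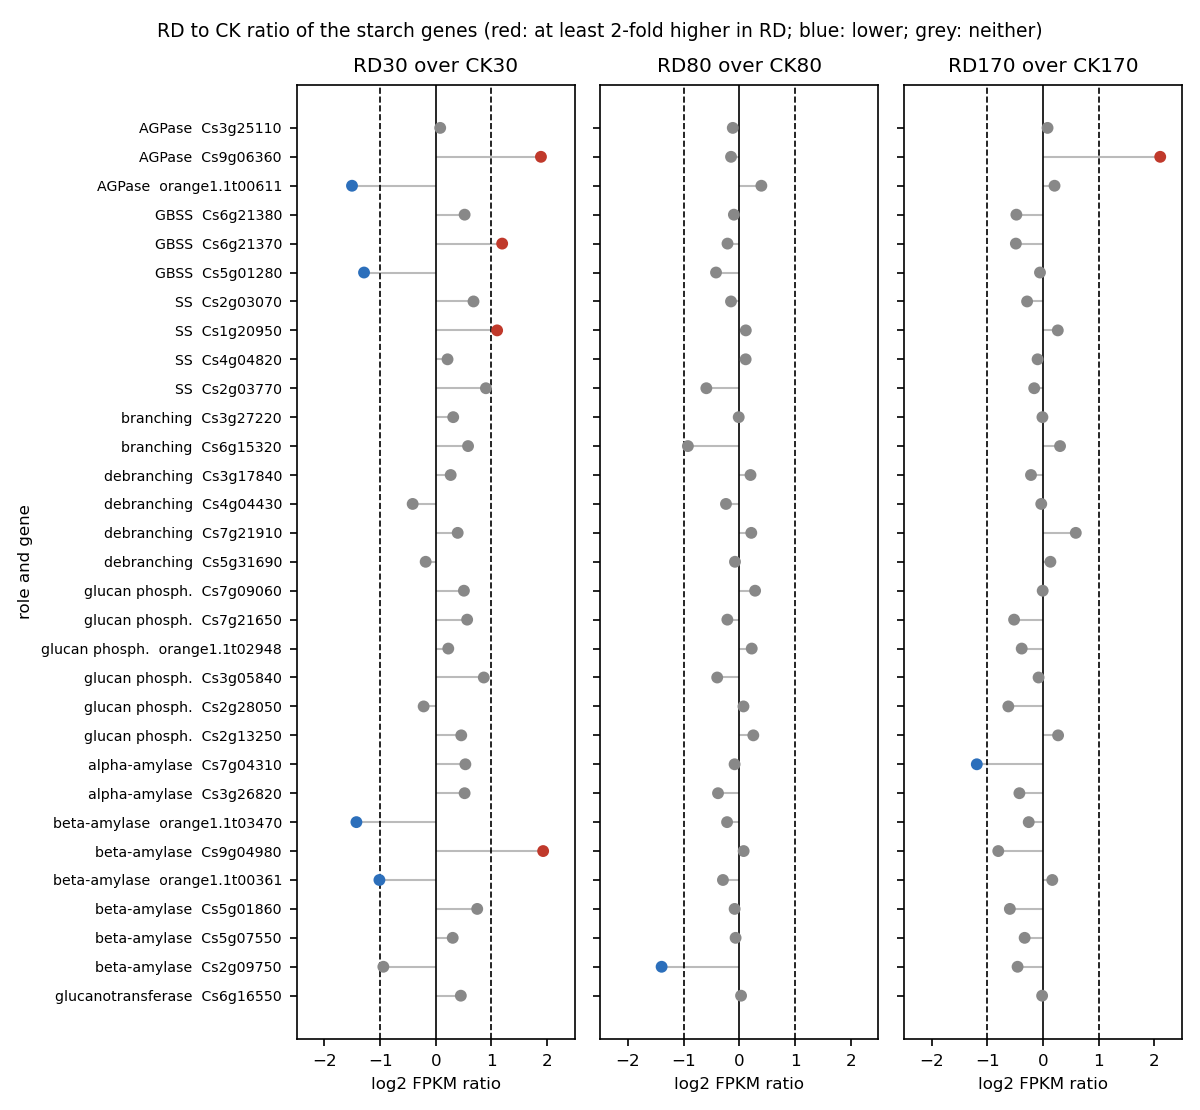
log2 FPKM ratio of RD to CK (x axis) for the 31 starch genes with an FPKM of at least 1 in any library (rows), at 30, 80, and 170 DAFB; dashed lines mark 2-fold, red and blue points pass the 2-fold rule, and each ratio compares 1 pool with 1 pool. The 4 red and 4 blue points at 30 DAFB contrast with 1 coloured point at 80 DAFB and 2 at 170 DAFB.

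The middle of the starch genes moved with the rest of the transcriptome at 30 DAFB. Over the 30 starch genes with an FPKM of at least 1 in both libraries, log2 RD30/CK30 had a median of 0.45 and quartiles of 0.11 and 0.65, while the median over all 15762 such genes was 0.43 with quartiles of -0.02 and 0.89. Because that all-gene median was not at 0, ratios were also centred on it (centred ratios). On the centred scale 2 of 31 starch genes were higher and 5 lower in RD30 (all genes, 13.9% and 10.8%), in place of 4 and 4 by the plain ratios. At 80 DAFB the starch genes had a median of -0.08 (all genes, 0.09), and 27 of 30 (90.0%) stayed within 1.5-fold, beside 82.2% of all genes. At 170 DAFB the median was -0.10 (all genes, -0.11), and 23 of 29 (79.3%) stayed within 1.5-fold, beside 71.2% of all genes.

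ADP-glucose pyrophosphorylase, which makes the glucosyl donor of starch synthesis from glucose-1-phosphate and ATP, showed a strong contrast between its genes. Large subunit 1 (Cs9g06360) had an FPKM of 25.1 in RD30 against 6.78 in CK30, of 34.8 in RD80 against 38.6 in CK80, and of 6.21 in RD170 against 1.44 in CK170. It was 3.71-fold higher in RD peel at 30 DAFB (log2 ratio 1.89) and 4.31-fold higher at 170 DAFB (2.11), and at 80 DAFB its log2 ratio was -0.15. The centred log2 ratio was 1.46 at 30 DAFB and 2.21 at 170 DAFB. With a pseudocount of 1 it was 1.75 at 30 DAFB and 1.56 at 170 DAFB, where the CK170 value lay near the limit of an FPKM of 1. The large subunit gene Cs3g25110 was the most abundant of the role and was steady, with 36.2 and 34.3 in RD30 and CK30, 47.1 and 51.1 in RD80 and CK80, and 45.6 and 43.0 in RD170 and CK170. Its lowest and highest values were 1.49-fold apart, compared with 26.8-fold for Cs9g06360.

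The make-up of the ADP-glucose pyrophosphorylase transcripts within a library does not depend on how the libraries are scaled. Of their summed FPKM, Cs9g06360 held 40.1% in RD30 and 15.4% in CK30, 41.7% in RD80 and 42.5% in CK80, and 11.9% in RD170 and 3.21% in CK170. Large subunit 2 (orange1.1t00611) went the other way at 30 DAFB at a low level, with 1.06 in RD30 and 3.01 in CK30 (log2 ratio -1.51). With a pseudocount of 1 the ratio was -0.96 and did not pass the 2-fold rule. The gene had 1.5 in RD80 and 1.14 in CK80, and 0.37 in RD170 and 0.32 in CK170. The gene matched to the small subunit (orange1.1t02484), the subunit that carries catalysis in most plants, had at most 0.28 in any library. Other genes that could code for a small subunit under a different description were not searched for.

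Green tissue markers differed at the same stages as Cs9g06360. The list of chlorophyll a-b binding proteins and of the ribulose bisphosphate carboxylase small chain held 8 genes. Of these, 7 were higher in RD30 than in CK30, 1 was higher in RD80 than in CK80, and 5 were higher in RD170 than in CK170. None was lower at any stage. Of all genes 25.6%, 5.2%, and 8.14% were higher at these stages and 6.34%, 4.86%, and 10.1% lower. Its summed FPKM was 12777 in RD30 and 5745 in CK30, 15785 in RD80 and 17295 in CK80, and 1491 in RD170 and 147 in CK170, with 1 of the 8 listed at 0 in each of CK30, CK80, RD170, and CK170. The part of green tissue in the difference of Cs9g06360 was not tested. Over the other marker lists, summed FPKM in RD over CK peel ranged from 0.885 to 1.31 for epidermis and cuticle (48 genes), from 0.836 to 2.23 for the oil gland (11 genes), and from 0.676 to 1.16 for seed (10 genes). An FPKM of 1 was reached by 35, 8, and 6 of them. At 30, 80, and 170 DAFB, 13, 5, and 6 epidermis and cuticle genes were higher in RD peel and 2, 0, and 4 lower. In the oil gland list 2, 0, and 1 were higher and 1, 4, and 1 lower. In the seed list 1, 0, and 0 were higher and 0, 1, and 0 lower. The highest oil gland ratio was at 30 DAFB, with 717 in RD30 and 322 in CK30. Only 2 seed markers reached an FPKM of 10, a late embryogenesis abundant protein (Cs9g04210) and oleosin 1-like (orange1.1t03751), so the seed list rested on these.

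Granule-bound starch synthase 1 elongates amylose, the nearly unbranched part of starch. Cs6g21370 and Cs6g21380 were instead described as granule-bound starch synthase 2, and which glucan they build was not tested. Cs6g21370 had an FPKM of 14.1 in RD30 against 6.16 in CK30 (log2 ratio 1.19), 15.2 in RD80 against 17.7 in CK80, and 19.0 in RD170 against 26.6 in CK170. Cs6g21380, whose ID follows on from it and whose best match is the same protein, had 18.1 and 12.6 in RD30 and CK30 (log2 ratio 0.52), 18.4 and 19.7 in RD80 and CK80, and 22.6 and 31.4 in RD170 and CK170. Reads from such a pair can be split between the genes, which leaves their separate values uncertain. Summed over the pair, FPKM was 32.2 in RD30 and 18.8 in CK30, a 1.71-fold difference that did not reach 2-fold, and the centred log2 ratio of Cs6g21370 alone, 0.76, did not reach it either. Granule-bound starch synthase 1 (Cs5g01280) was near the limit of an FPKM of 1. It had 0.45 in RD30 and 1.1 in CK30 (-1.29), 0.95 in RD80 and 1.27 in CK80, and 1.09 in RD170 and 1.13 in CK170. Its difference at 30 DAFB passed the rule by the plain ratio but not with a pseudocount of 1 (-0.53).

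Of the starch synthases not named granule-bound, starch synthase 3 (Cs2g03070) was the most abundant. Its FPKM was 28.1 in RD30 and 17.6 in CK30, 42.5 in RD80 and 47.2 in CK80, and 67.4 in RD170 and 82.0 in CK170. None of these differences reached 2-fold. Probable starch synthase 4 (Cs1g20950), an enzyme known from Arabidopsis to take part in starting new granules, had 17.9 in RD30 and 8.33 in CK30, 15.6 in RD80 and 14.4 in CK80, and 19.0 in RD170 and 15.8 in CK170. Its log2 ratio of 1.1 at 30 DAFB passed the 2-fold rule, but its centred ratio of 0.67 did not. Cs4g04820 and Cs2g03770, also described as starch synthase 4, differed by less than 2-fold at every stage, with log2 ratios between -0.59 and 0.90. The gene described as starch synthase 1 (orange1.1t04529) was listed at 0 in all libraries but CK30, where it had an FPKM of 0.81.

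No branching or debranching enzyme passed the 2-fold rule between RD and CK by the plain ratios. Branching enzyme Cs3g27220, which places the branch points of amylopectin, had 26.7 in RD30 and 21.5 in CK30, 32.5 in RD80 and 32.8 in CK80, and 82.2 in RD170 and 82.7 in CK170. At the later stages both peels thus had nearly the same value. Branching enzyme Cs6g15320 came close to the rule at 80 DAFB only, with 37.8 in RD80 and 71.8 in CK80 (log2 ratio -0.92), and passed it on the centred scale (-1.02). Summed over the branching enzymes, FPKM was 70.35 in RD80 and 104.58 in CK80. Among the debranching enzymes, isoamylase 3 (Cs3g17840), of breakdown in Arabidopsis leaves, had 21.1 in RD30 and 17.5 in CK30, 31.2 in RD80 and 27.1 in CK80, and 31.4 in RD170 and 36.4 in CK170. All 4 debranching genes, which include isoamylases 1 and 2 and a pullulanase, had log2 ratios between -0.42 and 0.59. Their summed FPKM was 50.6 in RD30 and 49.9 in CK30, 62.3 in RD80 and 59.3 in CK80, and 77.5 in RD170 and 77.0 in CK170, so it was 1.05-fold apart at most.

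None of the 6 genes that add phosphate to the glucan or act on it passed the 2-fold rule between RD and CK. The alpha-glucan water dikinase Cs7g09060, which starts granule breakdown by phosphorylating its surface, had 30.6 in RD30 and 21.5 in CK30, 43.7 in RD80 and 35.9 in CK80, and 98.7 in RD170 and 98.9 in CK170. The phosphoglucan phosphatase DSP4 (Cs7g21650) had 9.68 and 6.55 in RD30 and CK30, 17.8 and 20.6 in RD80 and CK80, and 40.2 and 57.5 in RD170 and CK170. The largest ratio of the role was that of a phosphoglucan, water dikinase gene (Cs3g05840, log2 ratio 0.86 at 30 DAFB), which shares its best match with orange1.1t02948. Summed over that pair, FPKM was 37.0 in RD30 and 26.5 in CK30, a 1.39-fold difference.

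Of the 2 alpha-amylases, which cut inside the glucan chains, 1 was lower in RD peel at maturity. The chloroplastic alpha-amylase 3 (Cs7g04310) had an FPKM of 21.2 in RD30 and 14.7 in CK30, 19.9 in RD80 and 21.1 in CK80, and 51.5 in RD170 and 117 in CK170. It was thus lower in RD peel only at 170 DAFB (log2 ratio -1.19, and -1.08 when centred), and CK170 held its highest value. The other alpha-amylase gene (Cs3g26820) had 3.48 and 2.43 in RD30 and CK30, 10.7 and 13.9 in RD80 and CK80, and 17.1 and 22.9 in RD170 and CK170. It differed by less than 2-fold at each stage.

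Beta-amylases, the enzymes that release maltose from chain ends, had the highest summed FPKM of all roles in every library but RD170, and their main genes differed in opposite directions at 30 DAFB. Beta-amylase 1 (orange1.1t03470) ranked 206th of all genes in RD30 and 53rd in CK30, with an FPKM of 321 in RD30 against 862 in CK30 (log2 ratio -1.43, and -1.86 when centred). It made up 36.8% of the summed FPKM of all starch genes in RD30 and 70.1% in CK30, while at 80 DAFB its part was 42.4% in RD80 and 44.3% in CK80 and at 170 DAFB 14.6% in RD170 and 14.7% in CK170. Its part thus differed between the peels at the first stage and was nearly equal at the later stages.

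Beta-amylase 9 (Cs9g04980), whose match is named as inactive, had the opposite difference. Its FPKM was 102 in RD30 and 26.8 in CK30, 67.7 in RD80 and 64.1 in CK80, and 39.3 in RD170 and 68.6 in CK170. The log2 ratio was 1.93 at 30 DAFB (1.5 when centred) and -0.80 at 170 DAFB, where 2-fold was not reached. Of the summed FPKM of beta-amylases, beta-amylase 9 held 22.8% in RD30 and 2.92% in CK30. Beta-amylase 1 held 71.6% in RD30 and 93.7% in CK30.

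Both genes described as beta-amylase 7, which in Arabidopsis is a nuclear protein with a DNA-binding domain, passed the rule as lower in RD peel at 1 stage each by the plain ratios. For orange1.1t00361 FPKM was 10.03 in RD30 and 20.2 in CK30, 11.5 in RD80 and 14.1 in CK80, and 11.7 in RD170 and 10.4 in CK170. Its log2 ratio of -1.01 at 30 DAFB lay at the limit of the rule, and with a pseudocount of 1 it was -0.95 and did not pass. For Cs2g09750, with an FPKM under 3 in every library, the values were 1.15 in RD30 and 2.21 in CK30 (-0.94), 1.09 in RD80 and 2.87 in CK80 (-1.40), and 0.81 in RD170 and 1.11 in CK170. By the plain ratios only the difference at 80 DAFB passed the rule, and no other starch gene passed it at that stage. On the centred scale the difference at 30 DAFB passed as well (-1.37), and with a pseudocount of 1 that at 80 DAFB did not (-0.89). The second gene matched to beta-amylase 1 (Cs5g01860) and the beta-amylase 3 gene (Cs5g07550), the main leaf enzyme in Arabidopsis, did not pass it, with log2 ratios between -0.59 and 0.74. A gene matched to beta-amylase 2 (orange1.1t03473) had 0.72 in RD30 and was listed at 0 elsewhere.

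**Figure D2:**
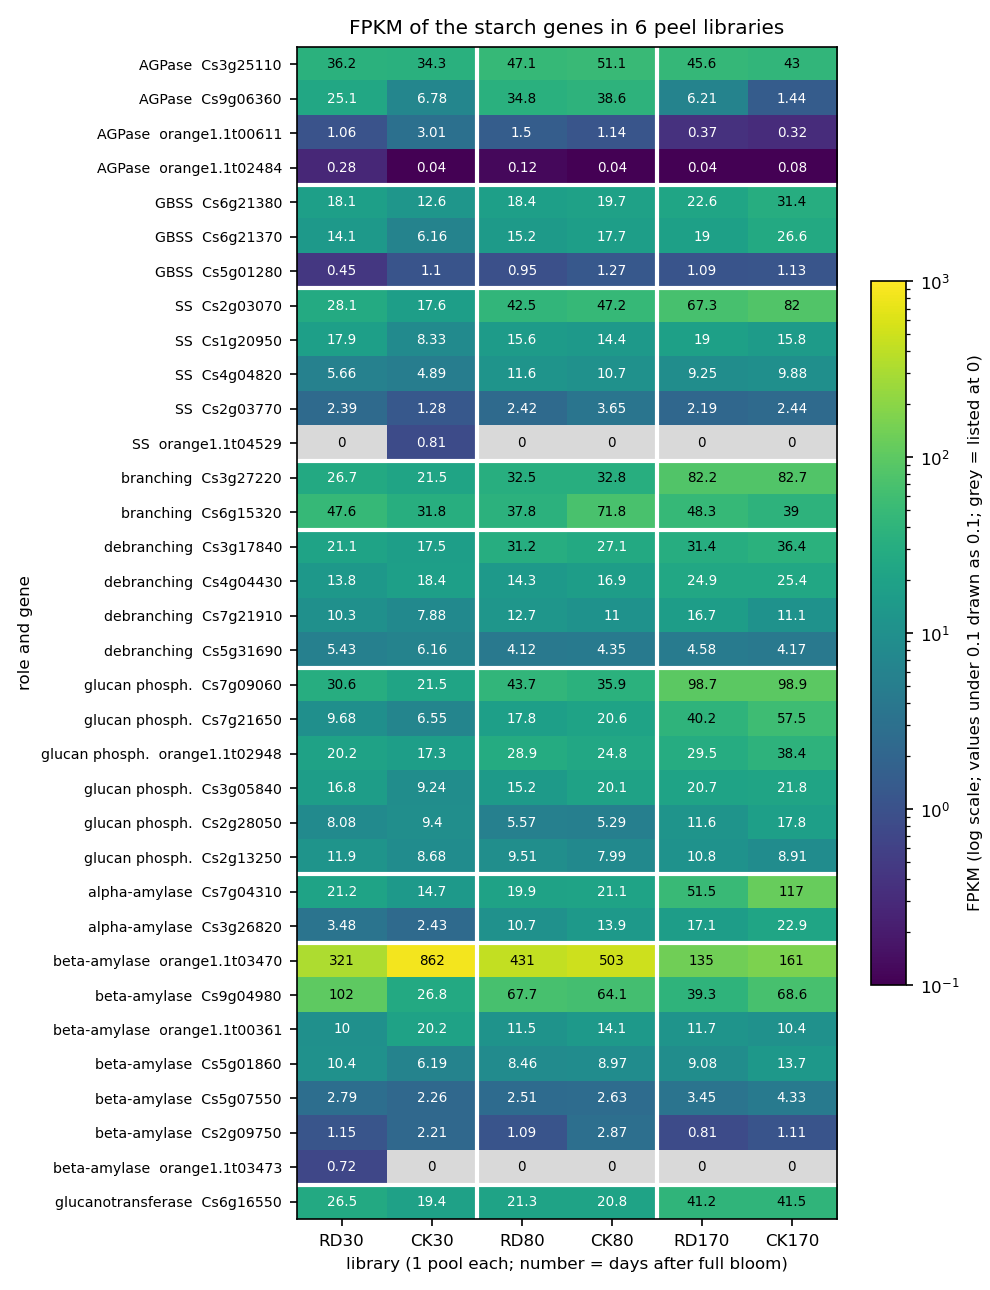
FPKM of each of the 34 starch genes (rows, grouped by role) in the 6 libraries (columns), on a log colour scale with the value written in each cell. Beta-amylase 1 (orange1.1t03470) is the brightest row, with 321 in RD30 and 862 in CK30, and grey cells mark genes listed at 0.

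The 4-alpha-glucanotransferase DPE2 (Cs6g16550), which metabolises maltose in the cytosol, differed by less than 2-fold at every stage. It had 26.5 in RD30 and 19.4 in CK30, 21.3 in RD80 and 20.8 in CK80, and 41.2 in RD170 and 41.6 in CK170. Its largest log2 ratio was 0.45, at 30 DAFB.

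When FPKM was summed by role, the beta-amylases alone were lower in RD30. Beta-amylases summed to 448 in RD30 and 920 in CK30, while each of the other 8 roles had a higher sum in RD30, by 1.01-fold for debranching enzymes to 1.64-fold for the starch synthases that are not granule-bound. The genes of synthesis summed to 224 in RD30 and 150 in CK30 (1.49-fold higher), and those of phosphorylation and breakdown to 596 in RD30 and 1029 in CK30 (0.58-fold). The breakdown sum held the phosphorylation genes, the alpha-amylases, all beta-amylases, and DPE2, while the debranching enzymes were in neither sum. Without beta-amylase 1 the breakdown sum was 276 in RD30 and 167 in CK30 (1.65-fold higher), and without the inactive beta-amylase 9 as well it was 174 in RD30 and 140 in CK30 (1.24-fold higher). On the centred scale the debranching enzymes (-0.41) and the phosphorylation genes (-0.01) were below 0 as well, the synthesis sum had a log2 ratio of 0.14, and the breakdown sum one of -1.22 as a whole, 0.29 without beta-amylase 1, and -0.12 without both beta-amylases. At 80 DAFB synthesis genes summed to 261 in RD80 and 310 in CK80 and at 170 DAFB to 323 in RD170 and 336 in CK170. The alpha-amylases, with 68.6 in RD170 and 140 in CK170, were the only role to differ 2-fold in its sum at maturity, and the centred log2 ratio of that sum, -0.92, did not reach 2-fold.

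**Figure D3:**
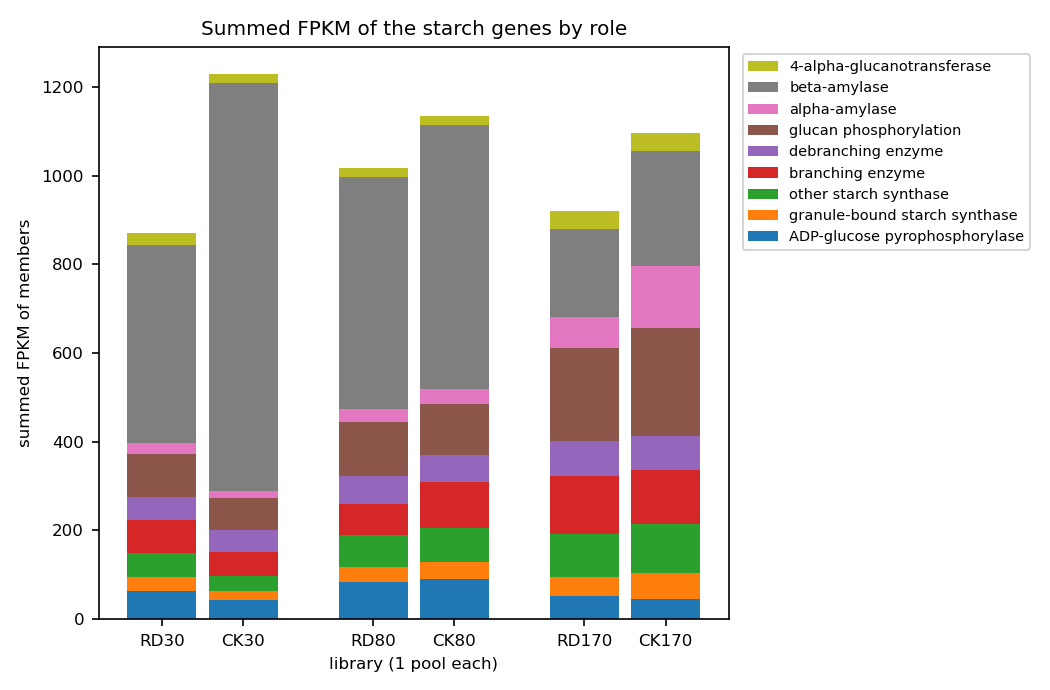
Summed FPKM of the 34 starch genes (y axis) in each of the 6 libraries (x axis), stacked by role. The total was 871 in RD30 and 1229 in CK30, and the grey beta-amylase block, 448 in RD30 and 920 in CK30, is where RD30 was lower: without beta-amylase 1 the total was 550 in RD30 and 367 in CK30.

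From 30 to 170 DAFB, beta-amylases came to take a smaller part of the starch gene transcripts in both peels. The synthesis genes together, the phosphorylation genes, and the alpha-amylases came to take a larger one. In RD peel 2 of 30 starch genes were higher and none was lower in RD80 than in RD30 (all genes, 7.15% and 9.44%), and 5 of 31 (16.1%) were higher and 3 (9.68%) lower in RD170 than in RD80 (all genes, 8.77% and 17.7%). In CK peel 10 of 31 (32.3%) were higher and 1 (3.23%) lower in CK80 than in CK30 (all genes, 23.4% and 9.06%), and 5 (16.1%) were higher and 4 (12.9%) lower in CK170 than in CK80 (all genes, 14.8% and 17.5%). The log2 ratio of RD80 to RD30 had a median of 0.08 over starch genes and of -0.01 over all genes, and that of CK80 to CK30 had medians of 0.57 and 0.31. From 80 to 170 DAFB the medians were 0.31 in RD peel (all genes, -0.02) and 0.29 in CK peel (all genes, 0.20). These steps share libraries with the comparisons of RD with CK, so the CK30 pool enters both the step from CK30 to CK80 and the ratio at 30 DAFB. On the centred scale, 6 starch genes were higher and 3 lower in CK80 than in CK30 (all genes, 16.3% and 13.1%).

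**Figure D4:**
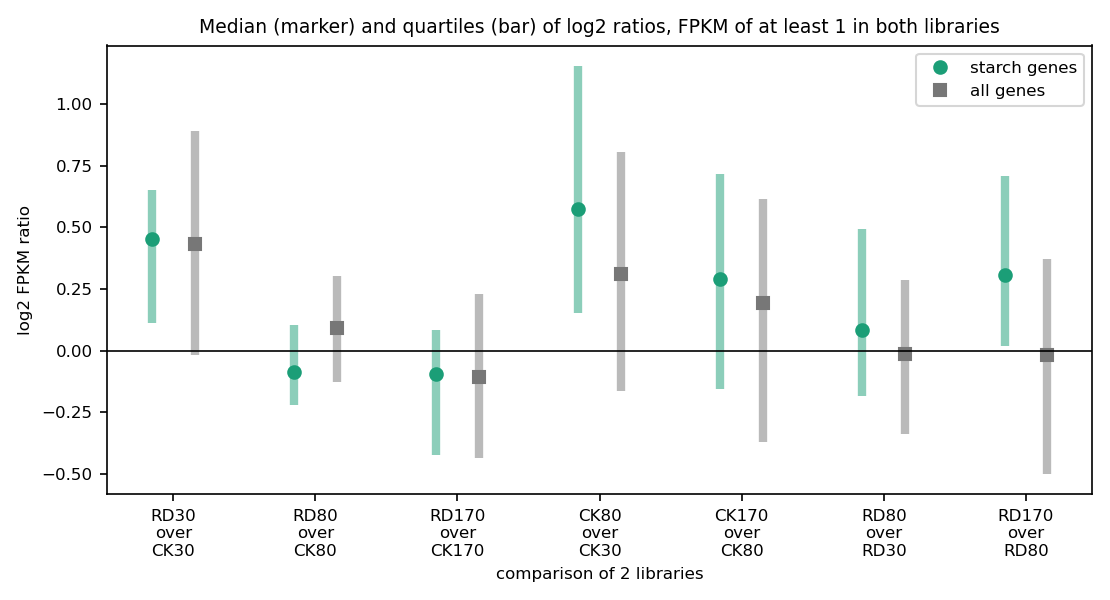
Median (marker) and lower to upper quartile (bar) of the log2 FPKM ratio, over starch genes (green) and over all genes (grey) with an FPKM of at least 1 in both libraries, for the 3 comparisons of RD with CK and the 4 steps of development. Starch genes and all genes have nearly the same median in RD30 over CK30 (0.45 and 0.43), and the starch genes have the higher median in each step of development.

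How far the genes changed from 80 to 170 DAFB overlapped between the peels was not counted over all genes. The 5 starch genes higher in CK170 than in CK80 were the same as the 5 higher in RD170 than in RD80. They were the water dikinase Cs7g09060, the phosphatase DSP4 (Cs7g21650), alpha-amylase 3, and, of synthesis, branching enzyme Cs3g27220. The fifth was LSF1 (Cs2g28050), described as a phosphoglucan phosphatase, an activity that was not tested. At 30, 80, and 170 DAFB the water dikinase had 30.6, 43.7, and 98.7 in RD peel and 21.5, 35.9, and 98.9 in CK peel, so both peels ended at about the same level. Alpha-amylase 3 had a log2 ratio of 1.37 for RD170 over RD80 and of 2.48 for CK170 over CK80, and DSP4 had 1.18 and 1.48. DSP4, which takes phosphate off the glucan, was the only starch gene higher at both steps in CK peel, with a log2 ratio of 1.66 for CK80 over CK30. The alpha-amylase gene Cs3g26820 passed it from 30 to 80 DAFB in both peels, with 1.62 in RD peel and 2.52 in CK peel.

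The 3 genes lower in RD170 than in RD80 were Cs9g06360, orange1.1t00611, and beta-amylase 1, and all 3 were among the 4 lower in CK170 than in CK80, where Cs2g09750 was the fourth. Beta-amylase 1 had 321, 431, and 135 in RD peel and 862, 503, and 161 in CK peel at 30, 80, and 170 DAFB, so the later step had log2 ratios of -1.68 in RD peel and -1.64 in CK peel. For Cs9g06360 the log2 ratio from 30 to 80 DAFB was 0.47 in RD peel and 2.51 in CK peel, and from 80 to 170 DAFB it was -2.49 in RD peel and -4.74 in CK peel. Of the 31 expressed genes, 13 (41.9%) had values that were higher at each later stage in RD peel, and 17 (54.8%) in CK peel, beside 21.8% of all expressed genes in RD peel and 41.2% in CK peel. Beta-amylases held 21.6% of the summed starch gene FPKM in RD170 and 51.4% in RD30, and 23.6% in CK170 and 74.8% in CK30. At 80 DAFB they held 51.3% in RD80 and 52.4% in CK80, so in RD peel the fall lay after 80 DAFB. The phosphorylation genes held 23.0% in RD170 and 11.2% in RD30, and 22.2% in CK170 and 5.91% in CK30. Alpha-amylases held 7.45% in RD170 and 2.84% in RD30, and 12.8% in CK170 and 1.39% in CK30. The synthesis genes together held 35.1% in RD170 and 25.7% in RD30, and 30.6% in CK170 and 12.2% in CK30. Of these, ADP-glucose pyrophosphorylase held 5.67% in RD170 and 7.20% in RD30, and 4.09% in CK170 and 3.59% in CK30.

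**Figure D5:**
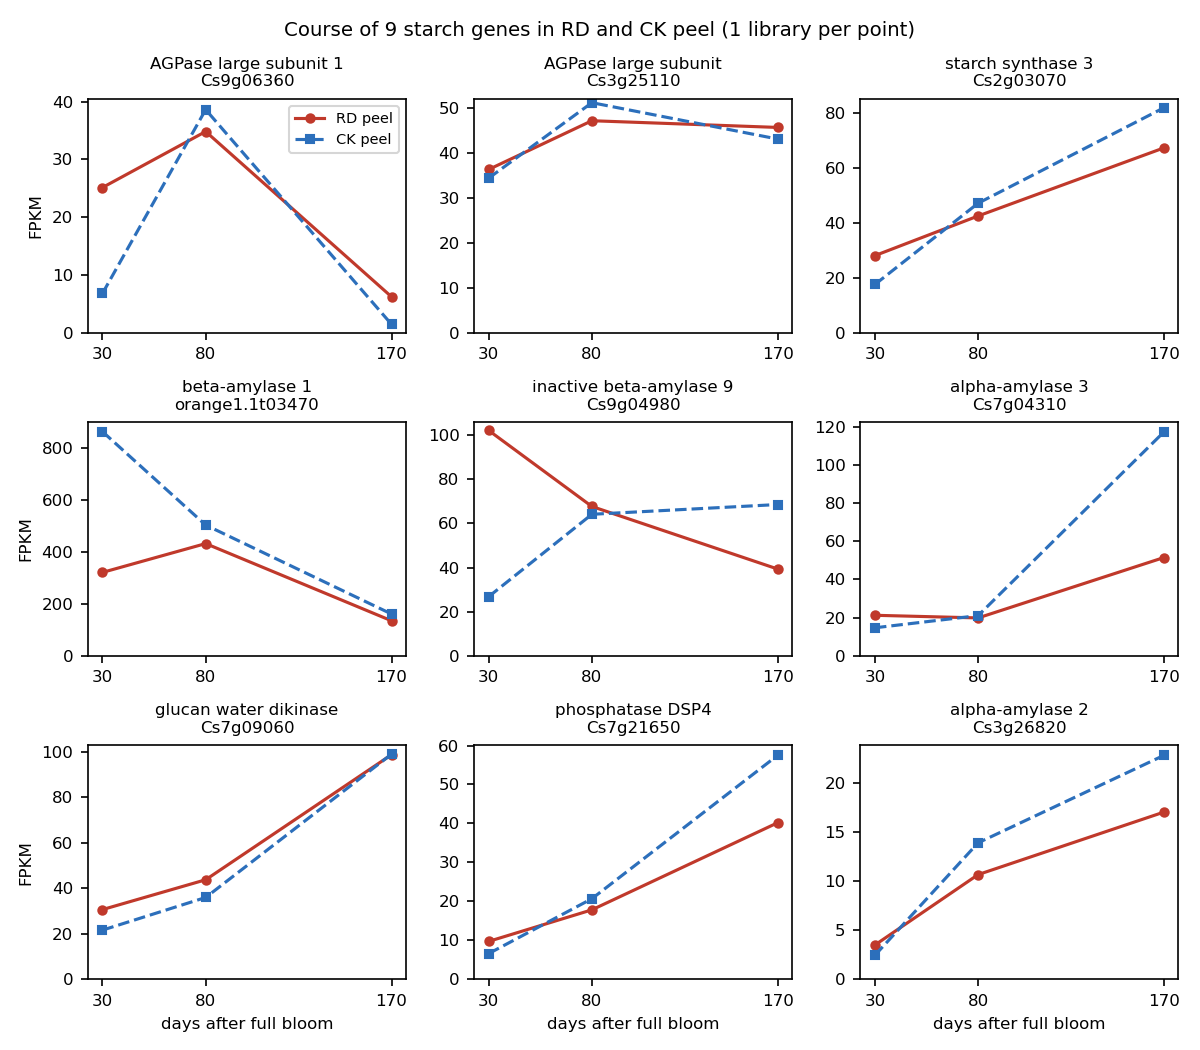
FPKM (y axis, from 0) at 30, 80, and 170 DAFB (x axis) of 9 starch genes in RD peel (red, solid) and CK peel (blue, dashed), with 1 library per point. Large subunit 1 of ADP-glucose pyrophosphorylase peaks at 80 DAFB in both peels and beta-amylase 1 starts at 321 in RD30 and 862 in CK30, while the water dikinase ends at 98.7 in RD170 and 98.9 in CK170.

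Genes next to the starch pathway were followed as a list of 25, made up of plastid transporters of sugar phosphates, glucose, and maltose, enzymes that interconvert sugar phosphates, pyrophosphatases, a glucan phosphorylase, and 11 alpha-glucosidases. In RD30, 4 of the 22 with an FPKM of at least 1 in the higher library (18.2%) were higher than in CK30 and none was lower (all genes, 25.6% and 6.34%). Of these 4, 2 were described as alpha-glucosidases and 2 as triose phosphate/phosphate translocators. The alpha-glucosidase orange1.1t01108 (11.6 in RD30 and 4.83 in CK30) was, like several others of the list, described as neutral. Whether such enzymes act on starch was not tested. The other alpha-glucosidase, Cs5g11130 (1.17 and 0.31), and the translocator Cs7g11350 (1.45 and 0.5) lay near the limit of an FPKM of 1. At 80 DAFB 1 of 21 (4.76%) was lower (all genes, 4.86%), a soluble inorganic pyrophosphatase (Cs1g24330, 16.9 in RD80 and 37.2 in CK80), and at 170 DAFB 1 of 21 was higher (all genes, 8.14%). The triose phosphate/phosphate translocator Cs2g05530, which exports fixed carbon from chloroplasts, reached the highest FPKM of the list at 30 and 80 DAFB, though not at 170 DAFB, and alone changed at more than 1 stage. It had 186 in RD30 and 91.8 in CK30 (log2 ratio 1.02), 226 in RD80 and 224 in CK80, and 45.8 in RD170 and 6.53 in CK170 (2.81). Its centred ratio at 30 DAFB was 0.58 and did not reach 2-fold. The plastid glucan phosphorylase Cs6g22020 (54.5 in RD30 and 48.8 in CK30) and the maltose exporter Cs7g15380 (18.4 and 13.8) differed by less than 2-fold at every stage, as did the glucose-6-phosphate/phosphate translocator orange1.1t03425, which supplies starch synthesis in non-green plastids and had 140 in RD170 and 224 in CK170.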

How the data were processed

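Polyadenylated RNA of peel was sequenced on an Illumina platform. The authors removed reads with adapters, undetermined bases, or low quality, aligned the rest to the sweet orange (Citrus sinensis) genome with Bowtie and BWA, and deposited FPKM per gene. The submitters' processing notes also name RSEM (tool versions not given in the sources used here). FPKM are not counts and carry no depth per gene, so no count test or counting interval was computed, and the FDR filter that the study joined to its 2-fold limit was not applied. The deposited FPKM depend on each library's make-up, so a change in abundant genes can move all ratios.

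Starch genes were those whose match text held starch, amylase, glucose-1-phosphate adenylyltransferase, ADP-glucose pyrophosphorylase, 1,4-alpha-glucan-branching, isoamylase, pullulanase, glucan water dikinase, phosphoglucan, alpha-glucan phosphorylase, or 4-alpha-glucanotransferase. Ratios were plain FPKM ratios (Python 3.11.15, pandas 2.3.3) and genes listed at 0 got no ratio. Alternatives were centred ratios, equal total FPKM, a pseudocount of 1, no minimum FPKM, enzymes only, a 1.5-fold limit, and, added after the values were seen, the summing of genes with the same best match. Named genes were those changed between RD and CK at any stage and the most abundant of each role (in the neighbouring list, those changed at 2 or more stages and the most abundant), and others were chosen after their values were seen. The genes and lists were chosen with earlier results of these data known. The RefSeq table used for names matched 0 of the 34 genes, so they carry the names given with the FPKM.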

Additional observations from a re-analysis of the deposited data

How the results depend on the processing

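No paired analysis was possible because each condition had 1 library, and for the same reason no replicate could be left out. Of 90 counts of changed starch genes under the alternatives, 73 were within 1.5 times the count reported and 17 were not. No named gene turned its direction under another scaling or the pseudocount at a stage where it had changed between RD and CK. Ratios near 0 could turn, as for Cs9g04980 at 80 DAFB (log2 ratio 0.08, and -0.01 when centred). Shares of all genes under the same setting stand in parentheses. With ratios centred on the all-gene median, the starch genes higher in RD30 than in CK30 numbered 2 (13.9%), 2 were lower in RD80 than in CK80 (5.63%), and 6 were higher (16.3%) and 3 lower (13.1%) in CK80 than in CK30. With a pseudocount of 1, which shrinks the ratios of weak genes, 1 was lower in RD30 than in CK30 (5.34%), 0 were lower in RD80 than in CK80 (3.17%), 0 were lower in CK80 than in CK30 (7.14%), 2 were lower in CK170 than in CK80 (14.5%), and 1 was higher in RD80 than in RD30 (4.72%). With no minimum FPKM, genes with values under 1 were added, which gave 1 higher in RD80 than in CK80 (9.97%), 2 lower in RD170 than in CK170 (13.8%), 2 lower in CK80 than in CK30 (12.4%), and 2 lower in RD80 than in RD30 (13.9%). With a 1.5-fold limit, 8 were higher in RD30 than in CK30 (44.3%), 3 lower in RD80 than in CK80 (9.71%), and 2 higher (14.1%) and 4 lower (19.9%) in RD170 than in CK170. Equal total FPKM, enzymes only, and the summing of genes with the same best match left every count within 1.5 times.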
